A study of Nasonia vitripennis with 9 samples.

Results

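The nicotinic acetylcholine receptor alpha subunits of the parasitoid wasp Nasonia vitripennis were taken as the rows of the deposited count files whose name is nAChRa followed by a single digit from 1 to 9. There were 7 such genes among 15418 named rows: nAChRa1, nAChRa2, nAChRa3, nAChRa4, nAChRa5, nAChRa8 and nAChRa9. All 7 passed the filter on low counts. No row was named nAChRa6 or nAChRa7. The files held 12 rows with a nicotinic subunit name in all, and the other 5 (nAChRa10, nAChRa11, nAChRa12, nAChRb1 and nAChRb3) served for comparison.

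Nicotinic receptors are cation channels of the cys-loop superfamily, built from several homologous subunits around a central pore and opened by acetylcholine. In insects they carry most fast excitatory transmission in the central nervous system and are the target of neonicotinoid insecticides. Alpha subunits carry a pair of neighbouring cysteines in the acetylcholine-binding loop, and beta subunits lack it. Most knowledge of single subunits comes from the fruit fly Drosophila melanogaster and the honey bee Apis mellifera.

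All libraries came from male wasps of strain AsymCX, a line cured of Wolbachia, and each was a pool of 5 whole animals. The 3 groups, with 3 libraries each, were dsGFP, water and uninjected. The dsGFP larvae were second instars, 3 days or so from egg laying, and were injected with double-stranded RNA of the green fluorescent protein sequence (4 µg/µl) and red food dye in water. The water larvae received water and the dye by the same route. Animals were collected as white pupae, for the injected groups 5 to 6 days after injection; another label field calls the same material larvae. The GFP sequence has no intended target in the wasp, so dsGFP against water addresses the double-stranded RNA, and water against uninjected the injection with its dye and handling. Nothing in the labels states that the pools of a group were raised separately, so each p-value refers to pool-to-pool spread, which may in part be technical.

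Gene totals per library were 33885222 to 46080606 read pairs, and each uninjected library (38792239 to 46080606) was deeper than each injected one. In pools of whole animals fewer neurons cannot be told apart from less transcript per neuron. Of 9 neuronal markers searched by symbol 2 matched a row, Syt1 (a calcium sensor of synaptic vesicles) and Para (the voltage-gated sodium channel), and both were detected in every library. Their summed level ran from 76.1 to 107 CPM (read pairs scaled to a common library size with edgeR's TMM factors) in uninjected libraries, 70.8 to 86.6 CPM in water libraries and 56.7 to 77.4 CPM in dsGFP libraries. None of the 7 glial symbols searched matched a row. The summed level of 46 cuticle genes, whose transcription follows the moulting cycle, varied from 578 to 12754 CPM in uninjected, 2018 to 23197 CPM in water and 5708 to 40056 CPM in dsGFP libraries. The summed level of 3 muscle genes was 772 to 883 CPM, 779 to 931 CPM and 853 to 918 CPM in the same order of groups. Of these 3, Zasp66, named after its values were seen, passed the test between dsGFP and uninjected (log2 fold change -1.41, SE 0.24, adjusted p = 0.0111 in edgeR's quasi-likelihood test). The other 2 did not pass and went in opposite directions, Tm2 with -1.13 (SE 0.33) and Tm1 with 0.17 (SE 0.13). Tm1, with means of 754, 807 and 846 CPM in uninjected, water and dsGFP libraries, made up most of the sum. In the same comparison 3 of 35 cuticle genes tested were called lower and 0 higher (4.55% of all genes were called), with a median log2 fold change of 0.77. The part of these differences between pools in the subunit values below was not tested.

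nAChRa1 and nAChRa2 are next to each other on chromosome 1 in the RefSeq table of assembly Nvit_psr_1.1, with no annotated gene between them, and nAChRa5 lies on the same chromosome 29 genes further on. That table served for names and neighbours only. nAChRa9 is also on chromosome 1, nAChRa3 on chromosome 3, nAChRa8 on chromosome 4 and nAChRa4 on chromosome 5. In Drosophila, too, the genes of the subunits numbered 1 and 2 belong to a cluster, and loss of the first lowers sensitivity to neonicotinoids.

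nAChRa1 was measured with 496 to 1386 read pairs per library. Its level was 22.6, 30.3 and 21.1 CPM in uninjected libraries 1, 2 and 3, 21.8, 26.9 and 21.2 CPM in the water libraries, and 14.5, 17.8 and 20.7 CPM in the dsGFP libraries. All 3 dsGFP libraries lay below all 6 others. Such a separation was met by 5.80% of the 11665 genes tested. The group means were 24.6 ± 4.94 CPM uninjected, 23.3 ± 3.13 CPM with water and 17.7 ± 3.11 CPM with dsGFP (SD, n = 3 each).

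nAChRa2, its neighbour, followed the same order of libraries at the ends of the range. It had 19.2, 27.7 and 18.3 CPM in the uninjected libraries, 19.8, 22.4 and 19.0 CPM with water, and 14.7, 17.5 and 19.3 CPM with dsGFP. Uninjected 2 was again the highest and dsGFP 1 the lowest, and the 3 groups overlapped. Group means were 21.7 ± 5.20, 20.4 ± 1.80 and 17.2 ± 2.27 CPM (SD, n = 3 each) for uninjected, water and dsGFP.

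nAChRa3 and nAChRa4 are numbered like a pair of Drosophila alpha subunits of the nervous system. nAChRa3 had 10.48, 14.97 and 12.24 CPM uninjected, 13.1, 12.2 and 11.5 CPM with water, and 8.47, 9.71 and 11.0 CPM with dsGFP. The dsGFP libraries lay below the water libraries, and uninjected 1 lay within the dsGFP range. nAChRa4 had 9.51, 12.2 and 8.96 CPM uninjected, 7.99, 9.14 and 7.50 CPM with water, and 4.85, 5.86 and 8.53 CPM with dsGFP. All dsGFP libraries lay below all uninjected ones, while dsGFP 3 lay among the water libraries. Means for nAChRa4 were 10.2 ± 1.72, 8.21 ± 0.840 and 6.41 ± 1.90 CPM (SD, n = 3 each), and its highest library was 2.51 times its lowest, the widest range among the 7 members.

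nAChRa8, whose honey bee counterpart corresponds to a beta subunit of Drosophila, varied least. It had 27.9, 27.8 and 24.4 CPM uninjected, 25.3, 23.7 and 22.9 CPM with water, and 22.1, 22.9 and 23.2 CPM with dsGFP. The dsGFP libraries lay below the uninjected ones and overlapped the water libraries. nAChRa9, which in the honey bee is a divergent subunit, had 11.5, 8.04 and 8.99 CPM uninjected, 9.92, 9.61 and 8.86 CPM with water, and 9.75, 8.99 and 10.2 CPM with dsGFP. Its 3 group means lay between 9.47 and 9.66 CPM, closer together than the SD within any group (0.545 to 1.81 CPM, n = 3 each). Uninjected 2, the highest library for 5 of the 7 members, was the lowest of all 9 for nAChRa9.

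nAChRa5 was the least counted member, and its count depends on how overlapping genes are handled. Without regard to strand it had 74 to 139 read pairs per library, whereas the 2 strand columns together gave 338 to 664, 5.00 times as many over all libraries. A read pair that falls on 2 overlapping genes is left out of the unstranded column but enters the strand columns. For the other 6 members the same ratio was 1.00 to 1.03. In the RefSeq table nAChRa5 overlaps 1 gene, LOC100123594, whose ratio was 2.15. The libraries carry no strand (49.95 to 50.13% of stranded counts in the first strand column), so pairs in the overlap cannot be given to either gene. On the unstranded counts nAChRa5 had 2.99, 3.04 and 1.93 CPM uninjected, 2.34, 2.34 and 1.91 CPM with water, and 2.69, 2.44 and 2.34 CPM with dsGFP. With both strand columns summed, an alternative chosen after these columns were seen, its group means were 12.3 ± 0.679, 10.9 ± 0.654 and 11.4 ± 1.23 CPM (SD, n = 3 each). Uninjected 3 was the second lowest library on the unstranded counts and the highest, at 13.1 CPM, on the summed ones. The order of libraries for nAChRa5 thus differs between the columns counted.

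**Figure D1:**
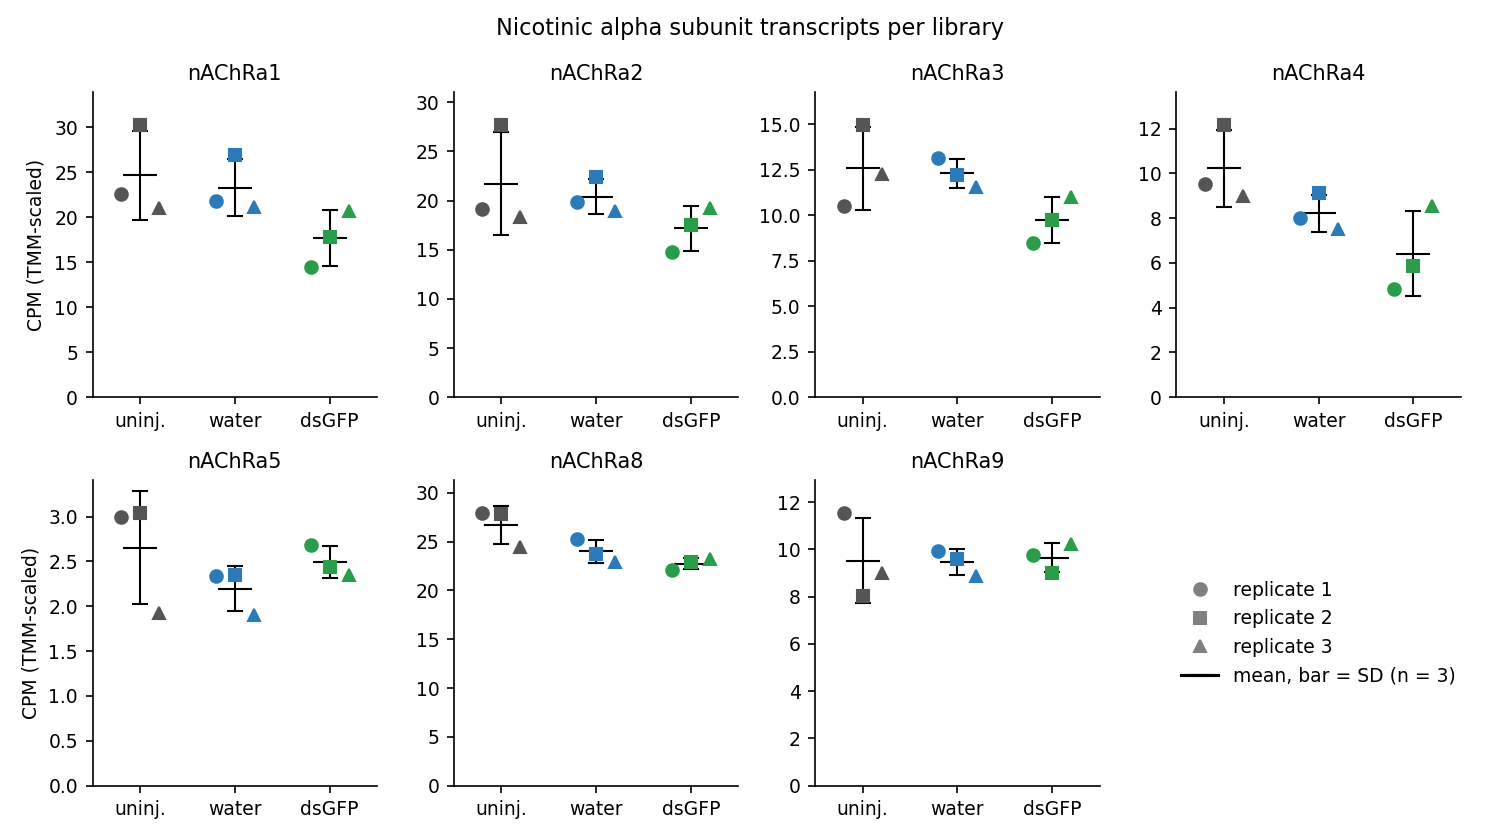
Level of each alpha subunit (CPM, TMM-scaled, linear axis from 0) in the 9 libraries, by group; points are libraries, with a marker for each replicate number, and black bars are the mean and SD of 3 libraries. For nAChRa1 the dsGFP libraries (14.5 to 20.7 CPM) sit below all others, while for nAChRa9 the groups lie on top of each other.

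The counts are not divided by transcript length, so a higher CPM of 1 subunit than of another does not show more transcripts of it, and no order of abundance among subunits is given. The spread over the 9 libraries exceeded counting error for all 7 members. It was widest for nAChRa4, with a coefficient of variation of 25.7% where counting alone gives 5.94%, and for nAChRa1, with 21.1% against 3.59%. The coefficients were 18.3% for nAChRa2, 16.6% for nAChRa3, 16.5% for nAChRa5 (counting error 10.6%), 10.4% for nAChRa9 and 8.66% for nAChRa8.

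The treatments of the dsGFP and water groups differ in the double-stranded RNA alone. Between these groups 0 of the 7 alpha subunits passed edgeR's quasi-likelihood test after Benjamini-Hochberg adjustment over all genes. The background was 0% of 11665 genes called; 710 (6.09%) had an unadjusted p under 0.05, DESeq2 called 6 genes and limma-voom 0, and none of these calls was an alpha subunit. 1 member, nAChRa1, had an unadjusted p under 0.05. It had a log2 fold change of -0.40 (SE 0.17, 95% interval -0.78 to -0.02, adjusted p = 0.803). nAChRa4 had -0.35 (SE 0.21, -0.82 to 0.11), nAChRa3 -0.34 (SE 0.16, -0.68 to 0.01) and nAChRa2 -0.25 (SE 0.17, -0.62 to 0.12). nAChRa8 had -0.08 (SE 0.10), nAChRa9 0.03 (SE 0.15) and nAChRa5 0.18 (SE 0.21). The dsGFP libraries lay wholly below the water libraries for nAChRa1 and nAChRa3 (background 7.57%), and wholly above them, by a margin lost in rounding, for nAChRa5 (background 4.77%). For all 7 the 95% interval lay within 2-fold, as it did for 83.1% of all genes. A fitted fold change below 0 was found for 5 of the 7 and for 48.1% of all genes.

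Between water-injected and uninjected pupae 0 of the 7 passed (background 0.00857%, 1 gene), and 0 had an unadjusted p under 0.05 (background 5.68%). DESeq2 and limma-voom also called 0 of the 7, beside 46 and 1 of all genes. All 7 had a fitted log2 fold change below 0, where 49.4% of all genes did. The values were -0.32 (SE 0.21) for nAChRa4, -0.27 (SE 0.21) for nAChRa5, -0.15 (SE 0.10) for nAChRa8, -0.09 (SE 0.17) for nAChRa2, -0.08 (SE 0.17) for nAChRa1, -0.03 (SE 0.16) for nAChRa3 and -0.01 (SE 0.15) for nAChRa9. The groups overlapped for every member (5.79% of all genes lay wholly lower with water and 2.85% wholly higher). Without uninjected 2 the sign turned for nAChRa1 (0.08), nAChRa2 (0.11) and nAChRa3 (0.10). Every interval in this comparison lay within 2-fold (background 84.6%).

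Between dsGFP-injected and uninjected pupae, which differ in injection and double-stranded RNA together, 0 of the 7 passed edgeR's test, against a background of 4.55% of genes called (4.11% lower and 0.437% higher with dsGFP). An unadjusted p under 0.05 was met by 4 of the 7, against 18.7% of all genes. These were nAChRa4 with a log2 fold change of -0.67 (SE 0.21, 95% interval -1.13 to -0.21, adjusted p = 0.111), nAChRa1 with -0.48 (SE 0.17, -0.86 to -0.10, adjusted p = 0.168), nAChRa3 with -0.37 (SE 0.16, -0.71 to -0.03, adjusted p = 0.238) and nAChRa8 with -0.23 (SE 0.10, -0.45 to -0.01, adjusted p = 0.249). nAChRa2 had -0.34 (SE 0.17), nAChRa5 -0.09 (SE 0.21) and nAChRa9 0.02 (SE 0.15). The dsGFP libraries lay wholly below the uninjected ones for nAChRa1, nAChRa4 and nAChRa8 (background 13.1%), and wholly above them for none of the 7 (background 8.79%). The fitted value was below 0 for 6 of the 7 (background 48.8%), and for 6 of the 7, all but nAChRa4, the interval lay within 2-fold (background 77.5%). The median over the 7 was -0.34, and over all genes tested 0.01.

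The call for nAChRa4 in this comparison turned on the tool and on a single library. DESeq2 called it lower with dsGFP (log2 fold change -0.67, adjusted p = 0.0473), as did edgeR without dsGFP 3 (-0.93, adjusted p = 0.0286), the dsGFP library with the highest nAChRa4 level. Over all genes DESeq2 called 939 and edgeR without dsGFP 3 called 512, beside 531 in the main fit. Over all the alternatives its edgeR, limma-voom and DESeq2 log2 fold change ran from -0.93 to -0.51, and its adjusted p from 0.0286 to 0.770. Without uninjected 2, the library highest for 5 members, the values were -0.54 for nAChRa4, -0.31 for nAChRa1, -0.23 for nAChRa3 and -0.14 for nAChRa2. With dsGFP 1, water 3 and uninjected 3 left out together they were -0.61, -0.47, -0.31 and -0.37 in the same order. With counts thinned to the smallest library they were -0.66, -0.45, -0.36 and -0.33.

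Taking the 6 injected libraries against the 3 uninjected, 0 of the 7 passed (background 0.0343%, of which 0.0171% lower and 0.0171% higher). nAChRa4 (-0.48, SE 0.19, adjusted p = 0.314) and nAChRa8 (-0.19, SE 0.08, adjusted p = 0.351) had an unadjusted p under 0.05 (background 13.2%). The groups overlapped for every member (4.46% of genes lay wholly lower and 1.87% wholly higher), 6 of the 7 were below 0 (background 48.4%), and all 7 intervals lay within 2-fold (background 83.7%). The F test for any difference among the 3 groups also passed for 0 of the 7 (background 2.04%). DESeq2 called 0 of the 7 in both of these comparisons, beside 445 and 682 of all genes. With limma-voom it was also 0 of the 7, beside 2 and 148 of all genes. The smallest adjusted p of edgeR's F test were 0.313 for nAChRa4 and 0.397 for nAChRa1. The dsGFP and water comparisons with uninjected pupae share the uninjected libraries.

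**Figure D2:**
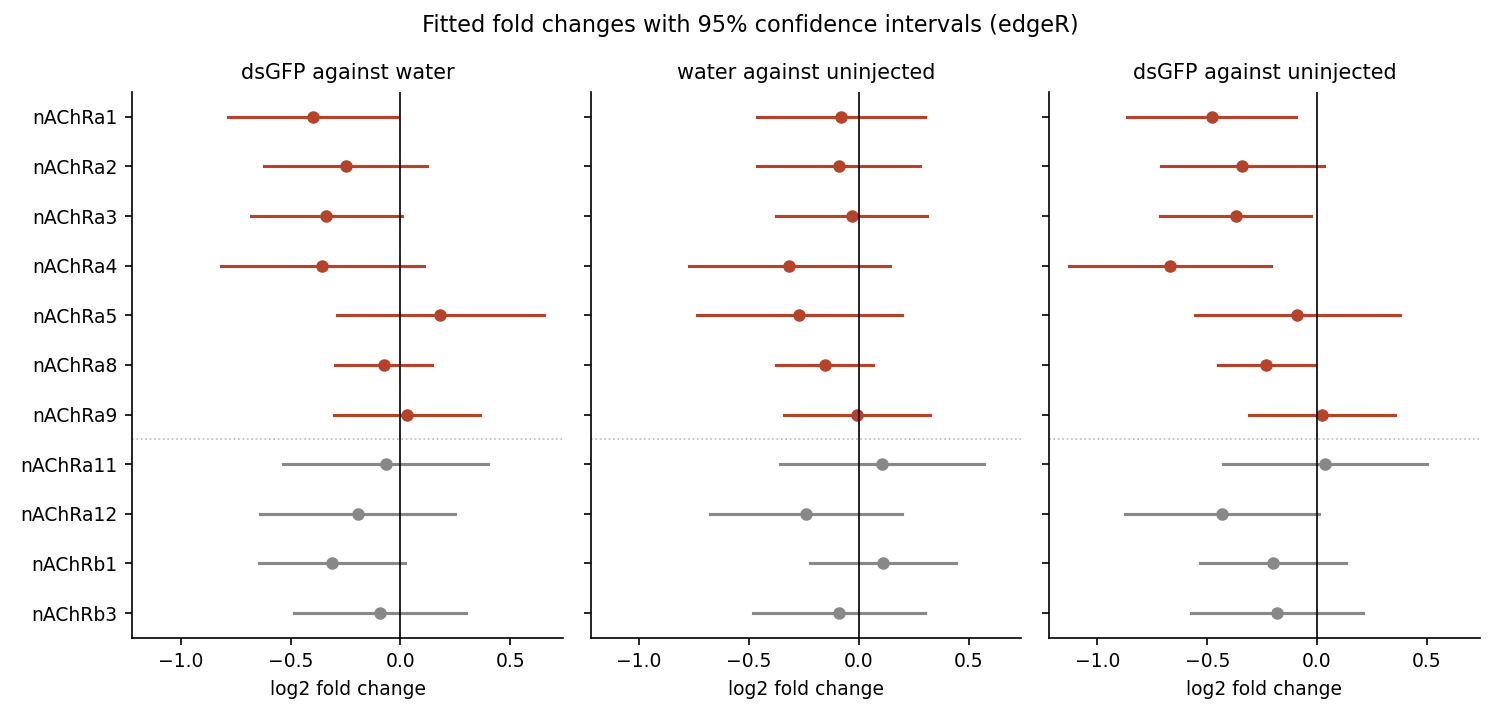
Fitted log2 fold change (edgeR; points) with 95% confidence interval (lines) for the 7 alpha subunits (red, above the dotted line) and the 4 other nicotinic subunits tested (grey) in the 3 comparisons of groups. The intervals of nAChRa1, nAChRa3, nAChRa4 and nAChRa8 lie below 0 in dsGFP against uninjected, and 0 of the 7 passed after adjustment.

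**Figure D3:**
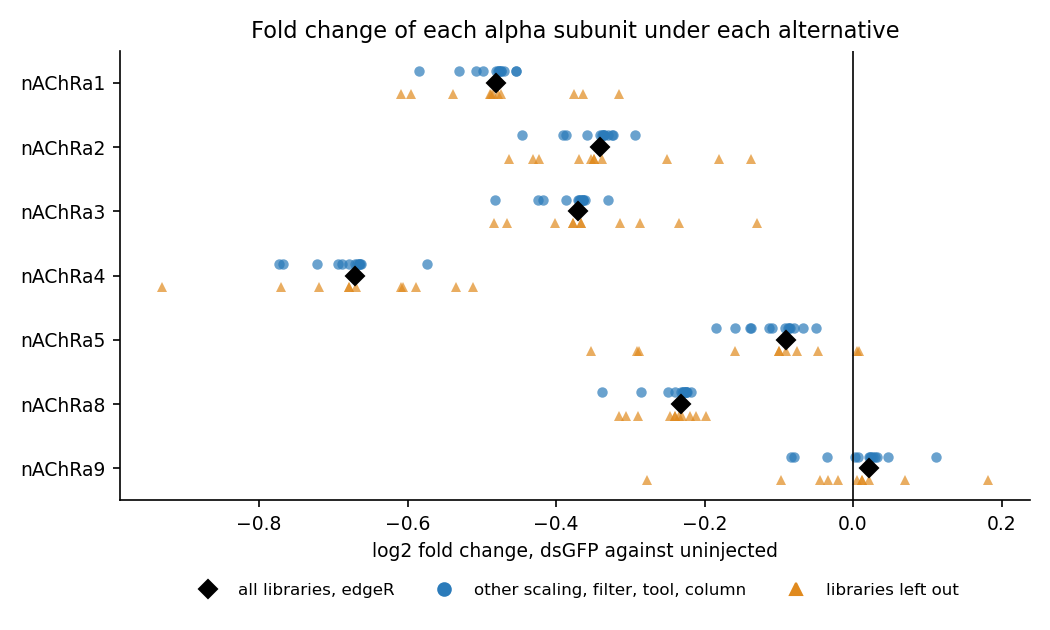
Log2 fold change of each alpha subunit between dsGFP and uninjected pupae with all libraries (black diamonds), under other scalings, filters, tools and count columns (blue circles) and with libraries left out (orange triangles). nAChRa4 stays between -0.93 and -0.51, and nAChRa9 falls on both sides of 0.

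Whether nAChRa1 and nAChRa4 moved by the same factor was tested on their count ratio within each library, which needs neither a library size nor a gene length to compare groups. The ratio of nAChRa1 to nAChRa4 counts was 2.38, 2.49 and 2.35 in the uninjected libraries, 2.73, 2.94 and 2.82 in the water libraries, and 2.99, 3.04 and 2.43 in the dsGFP libraries. The water libraries lay above all uninjected libraries, and dsGFP 3 lay within the uninjected range. The mean log2 ratio was 1.27 ± 0.0439 uninjected, 1.502 ± 0.0541 with water and 1.49 ± 0.181 with dsGFP (SD, n = 3 each). Over the 6 injected against the 3 uninjected libraries it was higher by 0.23 (two-sided exact permutation p = 0.0476, where the smallest possible is 0.0238). After Benjamini-Hochberg adjustment over the 4 comparisons made, this exact permutation p was 0.190. Even the smallest possible p could not pass 0.05 after that adjustment, so the adjusted value decides nothing. With 1 library left out the difference stayed between 0.21 and 0.27. The exact permutation p was 0.0714 without dsGFP 1, dsGFP 2 or any 1 water library and 0.0357 without dsGFP 3, where the smallest possible is 0.0357. Without an uninjected library the test cannot go below 0.0714, so its p says nothing there. The differences were 0.24 for water against uninjected (exact permutation p = 0.10) and 0.22 for dsGFP against uninjected (exact permutation p = 0.20), and 3 against 3 libraries cannot go below 0.10. Between dsGFP and water the difference was -0.01 (exact permutation p = 1).

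**Figure D4:**
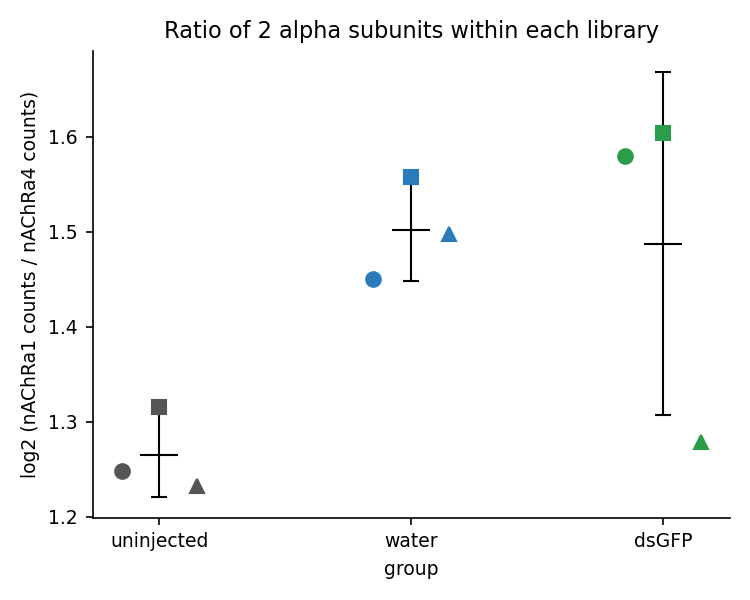
Log2 ratio of nAChRa1 to nAChRa4 counts in each library by group; points are libraries, with a marker for each replicate number, and black bars are the mean and SD of 3 libraries. The axis does not start at 0. The 3 water libraries and 2 of the 3 dsGFP libraries lie above all uninjected libraries.

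Among themselves the members differed in how far they went up and down together over the 9 libraries. nAChRa1, nAChRa2, nAChRa3 and nAChRa4, singled out after their values were seen, correlated at Pearson r = 0.85 to 0.97 in their 6 pairs (log2 CPM, n = 9 libraries). Across all 122760 pairs of the 496 tested genes at 1 CPM or more and not named by a locus number, the middle 90% ran from -0.80 to 0.84. The same 6 pairs gave 0.76 to 0.97 after the mean of each group was subtracted, so the shared pattern was also seen among libraries of the same group. Without the 2 libraries farthest from the median of the first gene of a pair, they gave 0.48 to 0.94. nAChRa8 lay between, at 0.79 with nAChRa4, 0.69 with nAChRa1, 0.66 with nAChRa2 and 0.60 with nAChRa3. nAChRa9 correlated with the other members at -0.44 to 0.23 and nAChRa5 at -0.06 to 0.57. The values for nAChRa5 rest on its unstranded counts, whose order of libraries differs from that of the summed strand columns. Within a library all genes share 1 scaling factor and 1 total depth.

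Only tested genes with a mean of at least 1 CPM and not named by a locus number were searched, 495 of 11665 for each member. The 5 most like each member were ranked by Pearson r. For nAChRa1 they were GluCl, a glutamate-gated chloride channel (r = 0.98), Syt1 (0.97), nAChRa2 (0.97), Acpr, a neuropeptide receptor (0.95), and nAChRa4 (0.94). For nAChRa2 they were nAChRa1, GluCl (0.96), Syt1 (0.96), Acpr (0.95) and Para (0.92). For nAChRa3 they were Para (0.93), GluCl (0.91), the odorant receptor gene Or266 (0.91), Syt1 (0.90) and nAChRa1 (0.89). For nAChRa4 they were Or266 (0.96), Syt1 (0.96), GluCl (0.95), Para (0.94) and nAChRa1 (0.94). Without the 2 libraries farthest from the median of the member, the 5 values ran from 0.76 to 0.94 for nAChRa1 and 0.67 to 0.94 for nAChRa2. In the same way they ran from 0.57 to 0.81 for nAChRa3 and 0.82 to 0.90 for nAChRa4.

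nAChRa5, nAChRa8 and nAChRa9 had no nicotinic subunit and no other cys-loop channel among their 5 by Pearson r; by Spearman's rho GRD, a GABA receptor-related subunit, was among the 5 of nAChRa8 (rho = 0.88). For nAChRa5 they included the adipokinetic hormone receptor gene Akhr (0.87), Sdha (0.85), a succinate dehydrogenase subunit gene, Nsf (0.81), an ATPase of vesicle fusion, and Plk4 (0.81). These too rest on the unstranded counts of nAChRa5. For nAChRa8 they were Dcst1 (0.85), the glutathione transferase gene GstD1 (0.82), the odorant receptor gene Or1 (0.82), kinesin-2B (0.81) and faa (0.80). For nAChRa9 they were the carboxylesterase gene CCE-E7 (0.80), GstS5 (0.76), Cdk4 (0.72), recQ1 (0.69) and GstS2 (0.66). Without uninjected 1 and 2, the libraries farthest from the median, the 5 values for nAChRa9 fell to between 0.03 and 0.58. Without the same libraries the 5 values ran from 0.34 to 0.87 for nAChRa8, and those of the genes named for nAChRa5 from 0.66 to 0.73. Of the 5 names, Spearman's rho returned 5 for nAChRa5, 2 each for nAChRa1, nAChRa2, nAChRa3 and nAChRa8, and 1 each for nAChRa4 and nAChRa9. For nAChRa2 this count depends on how ties are broken. GluCl and Acpr tied there at rho = 0.87 with nAChRa1 and nAChRb1, which were the ones listed. After the group means were subtracted, Pearson r returned 4 each for nAChRa1 and nAChRa4, and 3 each for nAChRa2 and nAChRa9. It returned 2 each for nAChRa3 and nAChRa5, and 0 for nAChRa8.

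**Figure D5:**
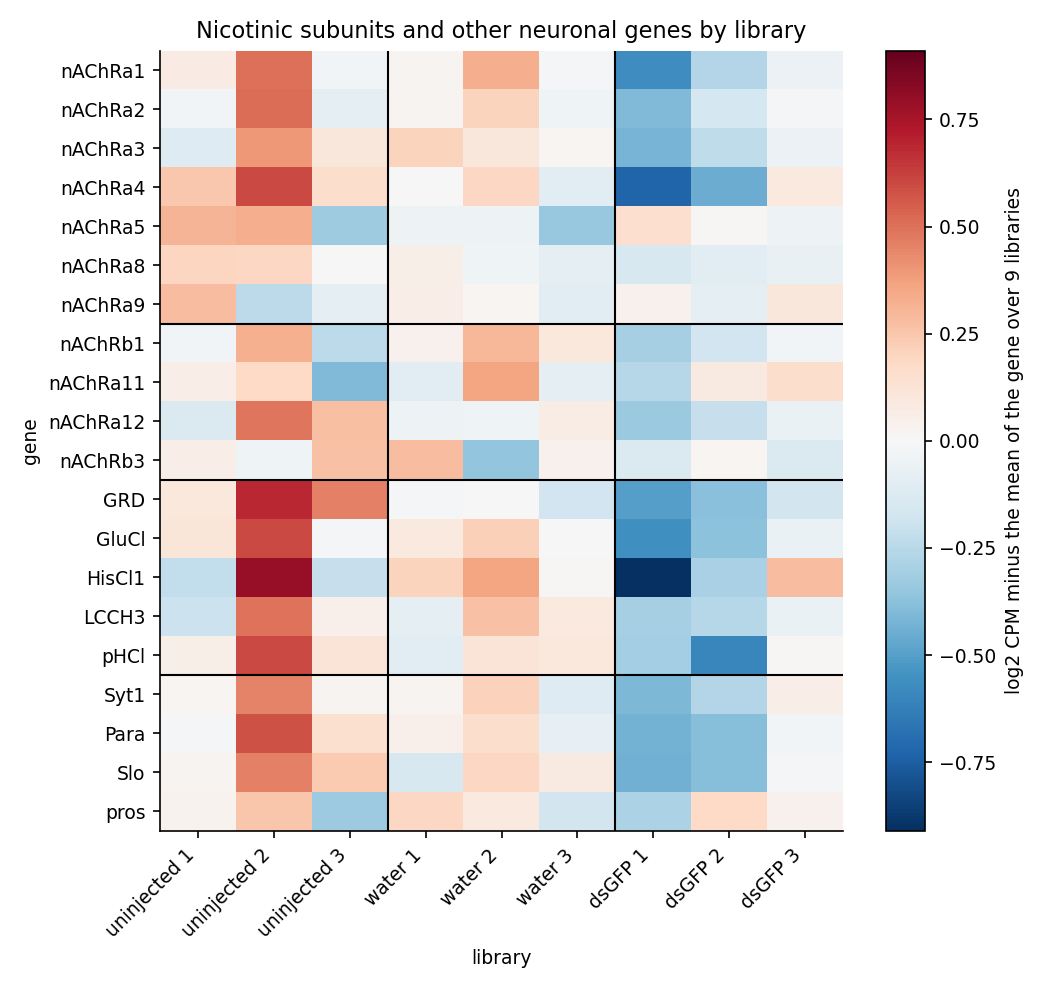
Log2 CPM of each gene minus its mean over the 9 libraries (red above, blue below), with libraries in columns and, from top to bottom, the 7 alpha subunits, 4 other nicotinic subunits, 5 other cys-loop channels and 4 neuronal genes. Uninjected 2 is red and dsGFP 1 blue for nAChRa1 to nAChRa4 and for most channels, and nAChRa9 does not share this pattern.

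Of the 5 other nicotinic subunits 4 passed the filter and 0 were called in any comparison by edgeR; 0 of the 4 had an unadjusted p under 0.05 in any comparison of groups. nAChRb1, a beta subunit, had 22.7, 29.0 and 19.5 CPM uninjected, 23.8, 28.5 and 24.7 CPM with water, and 18.7, 20.5 and 22.7 CPM with dsGFP. The dsGFP libraries lay below the water libraries and overlapped the uninjected ones. For dsGFP against water it had a log2 fold change of -0.31 with SE 0.15 (adjusted p = 0.835 in edgeR), beside 0.11 (SE 0.15) for water against uninjected and -0.20 (SE 0.15) for dsGFP against uninjected. It correlated with nAChRa1 and nAChRa2 at r = 0.89 and 0.90. Between dsGFP and uninjected nAChRa12 had -0.43 (SE 0.20, edgeR adjusted p = 0.276), nAChRb3 -0.18 (SE 0.18) and nAChRa11 0.04 (SE 0.21). nAChRa10 failed the filter, with 1 to 13 read pairs per library, which at most is 0.270 CPM.

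The other cys-loop channels found by symbol were 5 chloride channel and related genes, all tested. Between dsGFP and uninjected 1 of the 5 was called, GRD, a channel subunit related to GABA receptors, beside 4.55% of all genes. GRD fell from 23.1 ± 4.64 to 13.5 ± 1.62 CPM (SD, n = 3 each; log2 fold change -0.78, SE 0.16, edgeR adjusted p = 0.0177). The others had log2 fold changes of -0.57 for GluCl, -0.55 for the pH-sensitive channel pHCl, -0.43 for the histamine-gated channel HisCl1 and -0.35 for the GABA receptor subunit LCCH3, and did not pass. Between dsGFP and water, and between water and uninjected, 0 of the 5 were called. GRD had 16.4 ± 1.07 CPM with water (SD, n = 3), and its water libraries lay wholly below the uninjected ones (background 5.79%). Its log2 fold change was -0.50 (SE 0.15) for water against uninjected and -0.28 (SE 0.16) for dsGFP against water. The median of the 5 was -0.55 between dsGFP and uninjected, beside -0.34 for the 7 alpha subunits and -0.19 for the 4 other nicotinic subunits.

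Of 28 neuronal channel and synapse symbols 4 matched a row, and 0 of these were called in any comparison. Between dsGFP and uninjected 3 of the 4 had an unadjusted p under 0.05, beside 18.7% of all genes. Slo, a calcium-activated potassium channel, had a log2 fold change of -0.52 with SE 0.15 (adjusted p = 0.0863 in edgeR), beside -0.53 (SE 0.17) for Para, -0.37 (SE 0.16) for Syt1 and -0.01 (SE 0.17) for pros, a transcription factor of neural development. No row matched any of 20 symbols of the cholinergic synapse, such as choline acetyltransferase, acetylcholinesterase or muscarinic receptors; 14496 rows carry a locus number as their name, so these genes were not analysed here.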

How the data were processed

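Paired 150 bp reads came from mRNA captured by oligo(dT), and the labels' protocols name no strand-marking step. For each library the authors deposited raw counts of read pairs per gene in STAR's layout. The submitters' processing notes name STAR 2.6.1b; of the genome build, nothing is given in the sources used here. The unstranded counts were used, and 12 of 15430 rows that name no gene (0.0518 to 0.0608% of counts) were left out. Pairs that map to several places or to 2 genes are not in these counts. Of the rows kept 14940 matched the RefSeq table by symbol.

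Genes were filtered by edgeR's filterByExpr (minimum count 10, minimum total 15), leaving 11665, scaled by TMM and fitted over all 9 libraries (edgeR 4.0.16, glmQLFit robust, R 4.3.3), with Benjamini-Hochberg adjustment over all genes and a threshold of 0.05. CPM and log2 fold changes use these factors. Alternatives included DESeq2 1.42.0 and limma-voom (limma 3.58.1). The fit was also run on simulated data in which genes varied independently of each other. The outcome of that run is not reported here. Libraries were grouped by title.

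Members and lists were chosen with earlier results of these data known. Named were all nicotinic rows, called members of the channel, cholinergic and neuronal lists (otherwise up to 4 of smallest p in dsGFP against uninjected; cell type markers only describe the libraries), and for each member the 5 genes of highest Pearson r over 9 libraries, among those not named by a locus number with at least 1 CPM. For nAChRa5, 1 of these is not reported here. Levels per coding length and protein comparisons, planned earlier, were not made. Precision is limited by 3 libraries per group.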

Additional observations from a re-analysis of the deposited data

How the results depend on the processing

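Over 24 other settings 620 of 665 log2 fold changes of single subunits kept their direction and their side of the threshold, 2 passed it (nAChRa4, given above) and 43 changed sign. The F test's 161 values of single subunits all stayed on the same side of the threshold. The cause was not tested. Genes called between dsGFP and water numbered 0, and 6 with DESeq2. Between water and uninjected they numbered 1, and 46 with DESeq2, 0 on the second strand column, 0 without dsGFP 1, water 3 and uninjected 3, and 9 without uninjected 2 and 3. Between dsGFP and uninjected they numbered 531, and 939 with DESeq2 (1 of them an alpha subunit), 255 with only these groups fitted, 0 without those 3 libraries and 5 without uninjected 2 and 3. Between injected and uninjected they numbered 4, and 1 with DESeq2's factors in edgeR, 9 with upper-quartile factors, 445 with DESeq2, 2 with limma-voom, 10 with no filter, 1 with a stricter filter, 2 and 0 on the first and second strand columns, and 0 without the 3 libraries. The F test called 238, and 682 with DESeq2, 148 with limma-voom, 149 on the second strand column, 0 without the 3 libraries and 7 without uninjected 2 and 3. Leaving out 1 library at a time gave 0 to 0, 1 to 7, 134 to 681, 1 to 97 and 0 to 384 genes in the same order of comparisons, and 0 to 1 alpha subunits between dsGFP and uninjected. For the F test the 384 came without uninjected 1, and leaving out any other library gave 0 to 2 genes.

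nAChRa9 changed sign most often. For dsGFP against water it was -0.0057 with upper-quartile factors, -0.043 with library totals and -0.034 without the 3 libraries. For water against uninjected it was 0.015 with limma-voom, 0.086 on the first strand column and 0.0047 with the replicate block. For dsGFP against uninjected it was -0.034 with upper-quartile factors, -0.083 with totals, -0.080 on the second strand column, -0.045 without the 3 libraries and -0.28 without uninjected 2 and 3. For injected against uninjected it was -0.032, -0.061, -0.092, -0.027 and -0.29 in those settings, -0.011 with the stricter filter and -0.0054 after thinning. With 1 library left out it ran from -0.022 to 0.077, -0.13 to 0.15, -0.097 to 0.18 and -0.11 to 0.17 in these 4 comparisons. nAChRa5 turned to -0.070 on the first strand column for dsGFP against water, and ran from -0.29 to 0.0086 with 1 library left out for dsGFP against uninjected. For water against uninjected, nAChRa1, nAChRa2 and nAChRa3 were 0.021, 0.066 and 0.21 without uninjected 2 and 3, nAChRa3 was 0.026 on the first strand column, and with 1 library left out they ran from -0.21 to 0.083, -0.22 to 0.11 and -0.15 to 0.10. nAChRa3 for injected against uninjected was 0.048 without uninjected 2 and 3. The difference in log2 nAChRa1 to nAChRa4 ratio between dsGFP and water was 0.075 on the second strand column and -0.073 to 0.089 with 1 library left out. Between injected and uninjected it was 0.21 on the first strand column (unadjusted exact permutation p = 0.119) and 0.19 without the 3 libraries (0.267). With all libraries the unadjusted exact permutation p was 0.0476, and no p of this test could pass after adjustment over the 4 comparisons. The difference was 0.21 to 0.27 with 1 library left out, with the unadjusted p given above. Without the 3 libraries the exact permutation test cannot go below 0.133, so it could not pass.

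Same-numbered libraries deviated from their group means with correlations of -0.33 to 0.43, and 0 of 9 libraries correlated best with its own number in both other groups, so the numbers were not taken as pairs. With the replicate block 0, 1, 539, 1 and 216 genes were called.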

Other observations

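nAChRa10, which failed the filter on the unstranded counts, was counted mostly in overlap with another gene. Over all libraries its strand columns summed to 519 read pairs, 10.4 times its unstranded count of 50, and in the RefSeq table it overlaps LOC100678010. On the summed columns its level was 1.74 ± 0.358 CPM uninjected, 1.34 ± 0.320 CPM with water and 1.11 ± 0.159 CPM with dsGFP (SD, n = 3 each). These values include pairs that may belong to the overlapping gene.

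The summed level of 214 odorant receptor rows, markers of olfactory neurons, was 103 to 112 CPM uninjected, 101.1 to 107 CPM with water and 89.5 to 104 CPM with dsGFP. Of these rows 78 were tested. Between dsGFP and uninjected edgeR called 2 lower and 0 higher after Benjamini-Hochberg adjustment (4.55% of all genes were called), 20 had an unadjusted p under 0.05 (18.7% of all genes), 53 had a fitted value below 0 (48.8% of all genes), and the median log2 fold change was -0.27. The lowest of the 9 libraries was dsGFP 2 for this sum and dsGFP 1 for the sum of the 7 alpha subunits (77.1 CPM, against 124 CPM in uninjected 2).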
